A study of Homo sapiens with 8 samples.

Results

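The genes described here act on neutral lipid storage, that is on the coat of lipid droplets, the lipase that empties them, the proteins that carry fatty acids to them and the enzymes that make their triglyceride. They are HILPDA, PLIN2, PLIN3, FABP5, FABP7, PNPLA2, G0S2, LPIN1, DGAT1 and DGAT2. They were chosen by name, and all 10 were found among the 60332 genes of the deposited expression table. Of the 10, 8 passed the filter on low values (a value of 1 FPKM or more in 2 or more of the 8 libraries), among 15372 genes that passed in all. FABP7 and G0S2 did not pass and were not tested. FPKM is a fragment count scaled to the length of the transcript and the size of the library, so levels can be set side by side between genes of different length.

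Expression was measured by RNA sequencing in SK-N-MC, an established Ewing sarcoma cell line, in 4 groups of 2 libraries. All groups carried a lentiviral dCas9-KRAB, a Cas9 that does not cut DNA joined to a repressor domain, and had been selected with puromycin. The Ctrl (cas9 control) cells carried the empty vector and were kept for 16 h in normoxia or in hypoxia at 1% O2. The eKD1 and eKD2 cells each carried 1 guide that placed the repressor beside the GGAA repeat enhancer of LOXHD1, a different guide in each, and were both kept for 16 h in hypoxia at 1% O2. The cells were uncloned pools, and the study describes the duplicates as biological replicates. No eKD library from normoxia was analysed here, so the effect of oxygen in eKD cells could not be fitted. The comparisons made with the hypoxic Ctrl libraries all share those 2 libraries, and those made with the normoxic Ctrl libraries share these in turn.

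Lipid droplets store triglyceride and sterol esters behind a coat of perilipins, and cells fill them when fatty acids arrive faster than mitochondria burn them. Triglyceride is built on glycerol 3-phosphate, with lipins removing the phosphate and DGAT enzymes adding the last fatty acid, and it is broken down first by adipose triglyceride lipase, the product of PNPLA2. HILPDA and G0S2 both bind and inhibit that lipase. HILPDA is a well known target of the hypoxia-inducible factors, and hypoxic cancer cells are known to accumulate droplets.

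The libraries summed to between 865107 and 1041457 FPKM and listed between 19310 and 20770 genes above 0. LOXHD1, the gene whose enhancer was targeted, was at 155.8 and 168.5 FPKM in normoxic Ctrl and at 91.1 and 93.0 in hypoxic Ctrl libraries. It was at 15.0 and 17.3 in eKD1 and at 11.7 and 11.8 in eKD2 libraries, which checks their labels. The hypoxia markers CA9, ADM, PDK1 and VEGFA were called higher in hypoxic than in normoxic Ctrl cells in 4 of 4 cases. All 8 Ewing sarcoma markers examined passed the filter, with sums of 731 to 750 FPKM in normoxic Ctrl, 662 to 668 in hypoxic Ctrl, 621 to 697 in eKD1 and 679.8 to 679.9 in eKD2. Of these 8, 1 was called higher and 6 lower in hypoxic against normoxic Ctrl cells. In eKD2 against hypoxic Ctrl cells 3 were called higher and 1 lower. Over all genes tested, 16.2% were called higher and 16% lower in the first of these comparisons, and 5.8% and 3.81% in the second. Of 7 adipocyte markers 1 passed (PLIN1), and 4 of them, namely ADIPOQ, LEP, PLIN4 and FABP4, were listed at 0 in every library. Their summed level was between 0.213 and 0.379 FPKM in normoxic Ctrl, 1.67 and 1.71 in hypoxic Ctrl, 0.985 and 1.07 in eKD1 and 0.839 and 1.32 in eKD2. Of 6 macrophage markers 1 passed (CD68), and their sum was 0.822 to 2.23 FPKM in normoxic Ctrl, 3.11 to 6.17 in hypoxic Ctrl, 2.99 to 3.78 in eKD1 and 2.26 to 4.92 in eKD2. All 5 fibroblast markers passed, with sums of 279 to 282 FPKM in normoxic Ctrl and 324 to 343 in the hypoxic groups. The part of these 4 marker lists in the results was not tested.

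HILPDA, the droplet-associated inhibitor of adipose triglyceride lipase, carried the largest change among the tested storage genes. It was at 53.6 and 55.9 FPKM in normoxic Ctrl cells and at 313.0 and 311.7 FPKM in hypoxic Ctrl cells. In eKD1 cells it was at 202.5 and 198.5 FPKM, and in eKD2 cells at 241.2 and 237.5 FPKM. None of the 4 groups overlapped, and the order from low to high was normoxic Ctrl, eKD1, eKD2 and hypoxic Ctrl. In the single comparisons where it was counted, 53.6% to 70.4% of all genes tested did not overlap. The share that separates all 4 groups was not counted. The mean in hypoxic Ctrl cells was 5.70-fold that in normoxia. In such bulk samples a lower share of cells that express a gene and less of its RNA per cell cannot be told apart. It was the most abundant of the 10 genes in every hypoxic library.

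**Figure D1:**
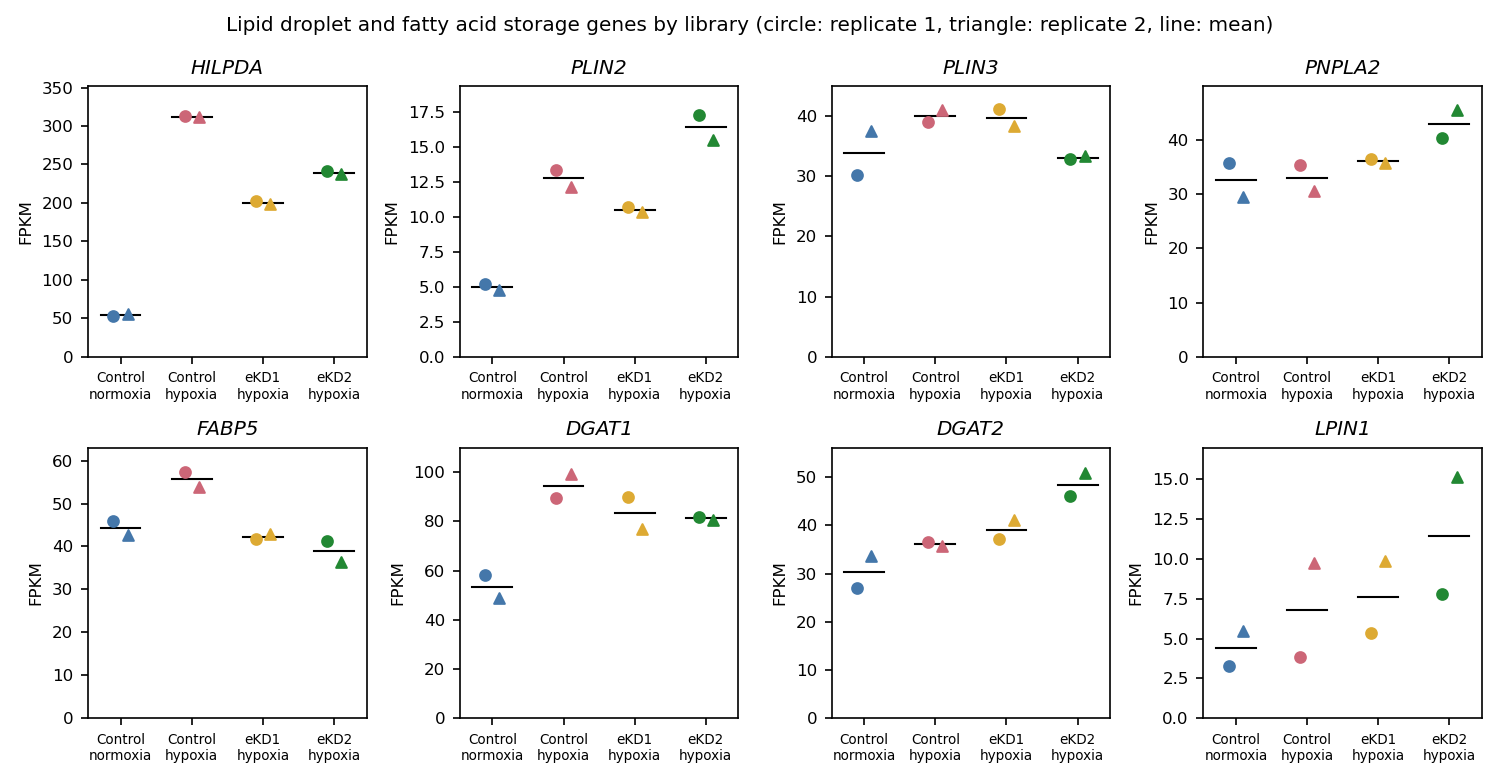
FPKM of the 8 tested storage genes (linear axis from 0) in the 4 groups, with a circle for replicate 1, a triangle for replicate 2 and a line at the mean of 2 libraries. HILPDA stands near 55 FPKM in normoxic and near 312 FPKM in hypoxic Ctrl cells with both eKD groups between, while LPIN1 shows the triangle above the circle in all 4 groups.

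On the log2(FPKM + 1) scale, on which all changes below are given, HILPDA rose by 2.49 (SE 0.0507, n = 2 and 2) in hypoxic against normoxic Ctrl cells, with an adjusted p of 0.00178 in limma. The p-values are two-sided, with a Benjamini-Hochberg adjustment across every gene tested, and a gene is called at an adjusted p under 0.05. Over all 15372 genes tested, 16.2% were called higher and 16% lower in this comparison. Among the 8 tested storage genes 4 were called, all higher, namely HILPDA, PLIN2, DGAT1 and FABP5. All 8 had a positive change, with a median of 0.39 beside 0.01 over all genes tested. In 6 of the 8 the hypoxic and normoxic libraries did not overlap, which held for 70.4% of all genes tested and so says nothing particular about these 8. Leaving out either library of either group left the HILPDA change between 2.46 and 2.52, with adjusted p between 0.0626 and 0.105. With 3 libraries 0 of the 15372 genes were called in any comparison.

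PLIN2 encodes perilipin 2, the coat protein of droplets in most cell types. It was at 5.24 and 4.80 FPKM in normoxic Ctrl cells and at 13.4 and 12.2 FPKM in hypoxic Ctrl cells. The groups did not overlap, and the means differed 2.55-fold. The log2 change was 1.19 (SE 0.127, adjusted p = 0.0111, limma). Without any 1 of the 4 libraries it was between 1.13 and 1.26, with adjusted p between 0.0641 and 0.110. At 12.8 ± 0.843 FPKM (SD, n = 2) in hypoxic Ctrl cells, PLIN2 was far less abundant than HILPDA.

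PLIN2 lies at chr9:19108373-19149288 on the minus strand (GRCh37), overlaps no other annotated gene, and its RefSeq promoter window could be read for the letters of the hypoxia response element. The 250 bases before its RefSeq start (chr9:19127493-19127742, minus strand, GRCh38.p14) are printed 5′ to 3′ because PLIN2 was the called gene with a window in the table used. The annotated PLIN2 span reaches upstream of that RefSeq start, and which start these cells use was not tested. Capitals mark the 5-letter core ACGTG or GCGTG on either strand, which reads CACGT or CACGC on the other strand.
PLIN2 promoter: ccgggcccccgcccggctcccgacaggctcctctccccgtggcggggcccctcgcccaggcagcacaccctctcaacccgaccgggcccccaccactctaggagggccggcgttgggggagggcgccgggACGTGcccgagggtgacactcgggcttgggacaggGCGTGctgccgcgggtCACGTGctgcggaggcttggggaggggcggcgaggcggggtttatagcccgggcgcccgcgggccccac
The window held 4 matches, which began at -120, -85, -69 and -68, counted from the base before the start as -1. The last 2 overlap as CACGTG, a sequence that reads the same on both strands. Of 35116 RefSeq windows of the same length, 43.2% held at least 1 match and 3.22% held at least 4.

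Windows were found for 6 of the 10 genes. G0S2 held 4 matches, PLIN3 held 3 and LPIN1 held 1 in 1 of its 3 windows. FABP7 and PNPLA2 held 0, which says only that these letters are not in those 250 bases. HILPDA, FABP5, DGAT1 and DGAT2 were without a window. A match is a description of the letters and no measure of binding.

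PLIN3, a perilipin that also occurs free in the cytosol and moves onto young droplets, was at 30.2 and 37.4 FPKM in normoxic Ctrl cells and at 39.0 and 40.9 FPKM in hypoxic Ctrl cells. The hypoxic libraries were both above the normoxic ones. The change of 0.24 (SE 0.129) was not called (adjusted p = 0.227, limma), and its 95% interval ran from -0.12 to 0.61. The ratio of PLIN3 to PLIN2 in FPKM was 5.75 and 7.80 in normoxic Ctrl libraries and 2.92 and 3.36 in hypoxic ones. PLIN3 thus stayed the more abundant of both coat genes, by a smaller factor in hypoxia.

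The lipase gene PNPLA2 was at 35.7 and 29.4 FPKM in normoxic Ctrl cells and at 35.4 and 30.6 FPKM in hypoxic Ctrl cells. The groups overlapped almost entirely. The change was 0.02 (SE 0.141, 95% interval -0.38 to 0.42, adjusted p = 0.921, limma). Since the mRNA of its inhibitor HILPDA rose, the ratio of HILPDA to PNPLA2 in FPKM went from 1.503 and 1.90 in the normoxic libraries to 8.84 and 10.2 in the hypoxic ones. It was 5.56 and 5.57 in eKD1 libraries and 5.98 and 5.23 in eKD2 libraries, so both eKD groups lay between the Ctrl groups. G0S2, the other inhibitor of this lipase in the group, was listed at 0 in all 8 libraries. An exact 0 in this table can be a failed estimate, because ETFA, which cells generally use for fatty acid oxidation, was also listed at 0 in 5 of the 8.

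FABP5, a cytosolic fatty acid binding protein, was at 46.0 and 42.8 FPKM in normoxic Ctrl cells and at 57.3 and 53.9 FPKM in hypoxic Ctrl cells. The libraries did not overlap, and the means differed 1.25-fold. The change of 0.32 (SE 0.0773) was called at an adjusted p of 0.0495 in limma. It kept its sign under every scaling tried but was 0.08 (adjusted p = 0.457, of a range of 0.0331 to 0.457 over the alternatives) with the libraries brought to equal FPKM totals, and without any 1 library the adjusted p was between 0.0961 and 0.200. FABP5 has 13 annotated pseudogenes in the table, which summed to at most 1.10 FPKM in any library, and reads shared with them make its level uncertain. The gene lies at chr8:82192771-82197012 on the plus strand (GRCh37) and overlaps 1 antisense gene. FABP7, the brain-type binding protein, was listed at 0 in both normoxic Ctrl libraries and at 0.0993 and 0.103 FPKM in the hypoxic ones. In eKD1 it was at 0.120 and 0 and in eKD2 at 0.128 and 0 FPKM, so no group was above 0.13.

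DGAT1 and DGAT2 encode the unrelated enzymes that add the third fatty acid to triglyceride. DGAT1 was at 58.3 and 48.7 FPKM in normoxic Ctrl cells and at 89.6 and 99.3 FPKM in hypoxic Ctrl cells, a difference of 1.77-fold between means with no overlap. The change was 0.81 (SE 0.119, adjusted p = 0.0187, limma). Without any 1 library it was between 0.69 and 0.94, with adjusted p between 0.0636 and 0.134. DGAT1 (chr8:145538247-145550573, minus strand, GRCh37) overlaps HSF1 on the opposite strand and 1 non-coding gene, and the libraries did not keep strand, so reads of both strands cannot be told apart there.

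DGAT2 was at 26.98 and 33.7 FPKM in normoxic Ctrl cells and at 36.5 and 35.6 FPKM in hypoxic Ctrl cells. The hypoxic libraries were the higher ones, but the change of 0.25 (SE 0.132, 95% interval -0.12 to 0.62) was not called (adjusted p = 0.225, limma). The ratio of DGAT1 to DGAT2 in FPKM was 2.16 and 1.44 in normoxic and 2.46 and 2.79 in hypoxic Ctrl libraries.

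LPIN1, which encodes the phosphatidate phosphatase lipin 1, was at 3.27 and 5.50 FPKM in normoxic Ctrl and at 3.88 and 9.74 FPKM in hypoxic Ctrl cells. The groups overlapped, and the change of 0.46 (SE 0.482, 95% interval -0.90 to 1.82) was not called (adjusted p = 0.507, limma). Replicate 2 was above replicate 1 in each of the 4 groups, by 0.60 in normoxic Ctrl, 1.14 in hypoxic Ctrl, 0.77 in eKD1 and 0.88 in eKD2. This was noticed after the values were seen. Among the 15372 genes tested, 23 (0.150%) differed between replicates by over 0.5 with the same sign in all 4 groups, and no other storage gene was among them. LPIN1 (chr2:11817721-11967535, plus strand, GRCh37) overlaps 4 other annotated genes.

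**Figure D2:**
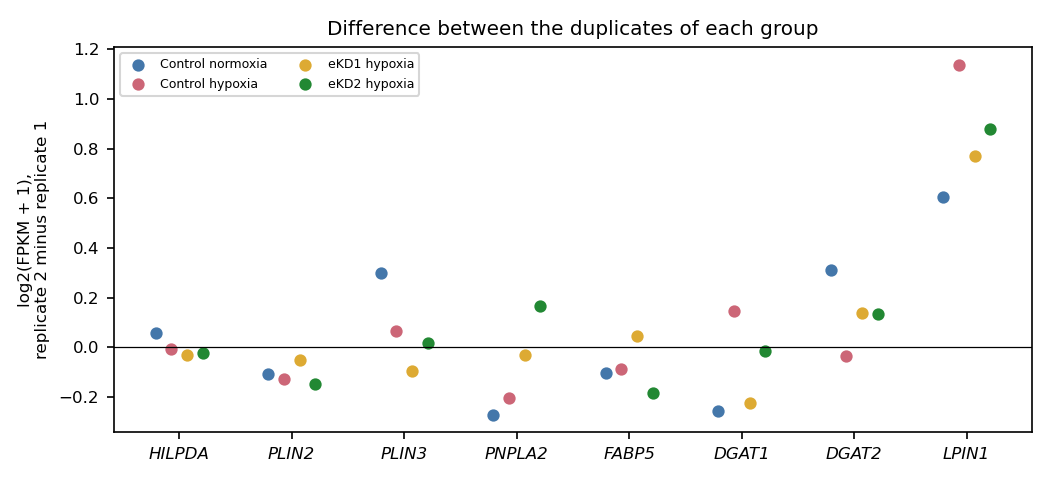
Difference between replicate 2 and replicate 1 in log2(FPKM + 1) for each of the 8 tested storage genes, 1 point for each group. The 4 points of LPIN1 lie between 0.60 and 1.14, while the points of the other 7 genes lie between -0.27 and 0.31.

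Scaling the libraries to equal FPKM totals moves the changes of well expressed genes in a comparison by nearly the same amount. With equal FPKM totals the median change of all genes in the hypoxia comparison moved from 0.01 to -0.19, and the share of calls that were higher fell from 50.3% to 28.4%. The change was then 2.25 for HILPDA, 0.98 for PLIN2 and 0.58 for DGAT1, and each of these 3 stayed called. PNPLA2 was at -0.21. Relative to the moved median HILPDA was at 2.44, PLIN2 at 1.17, DGAT1 at 0.77 and PNPLA2 at -0.02. Taking the median off largely undoes the scaling, so these relative values are no test of it.

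The question of the eKD1 and eKD2 comparisons was how the hypoxic level of each gene differed once the LOXHD1 enhancer was repressed. HILPDA was lower with both guides, at 64.2% of the mean of hypoxic Ctrl cells in eKD1 and at 76.6% in eKD2. The eKD1 difference was -0.64 (SE 0.0408, 95% interval -0.75 to -0.52, unadjusted p = 0.000138), and its adjusted p of 0.101 in limma did not pass. The eKD2 difference was -0.38 (SE 0.0377, adjusted p = 0.0305, limma) and was called. The larger of both differences was thus the one not called, and the comparisons differed in how many genes were called over the whole table. In eKD1 against hypoxic Ctrl cells 0.013% of all genes tested were called higher and 0.052% lower, against 5.8% and 3.81% in eKD2 against hypoxic Ctrl cells. In a fit of all 8 libraries with 1 shared estimate of the spread, HILPDA was called in eKD1 as well (adjusted p = 0.00697, limma). Over the alternatives that kept all libraries its adjusted p was between 0.00697 and 0.249. Without any 1 library the HILPDA difference in eKD1 was between -0.65 and -0.62. Of the hypoxia markers in eKD1, ADM was at 126.0% of the hypoxic Ctrl mean, PDK1 at 106.5%, CA9 at 99.5% and VEGFA at 71.8%. In eKD2 ADM was at 126.6%, PDK1 at 176.8%, CA9 at 79.4% and VEGFA at 85.8%.

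In eKD1 cells 0 of the 8 tested genes were called by limma, and 2 had an unadjusted p under 0.05, namely HILPDA and FABP5. Over all genes tested 10 were called and 3337 (21.7%) had an unadjusted p under 0.05. The median of the 8 changes was -0.10 beside 0.00 over all genes, and 5 of the 8 did not overlap with hypoxic Ctrl cells, beside 53.6% of all genes. In eKD2 cells HILPDA alone was called, and 7 of the 8, all but LPIN1, had an unadjusted p under 0.05 and did not overlap. Of all genes tested 32.8% had an unadjusted p under 0.05 and 62.1% did not overlap in that comparison. The median of the 8 was 0.06 beside 0.05 over all genes, with 4 changes positive and 4 negative. Without any 1 of its 4 libraries the HILPDA difference in eKD2 was between -0.39 and -0.37, with adjusted p between 0.150 and 0.205. Of the calls over all genes in eKD2, 60.3% were higher, against 46.3% with median-of-ratios rescaling and 77.5% with equal FPKM totals.

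**Figure D3:**
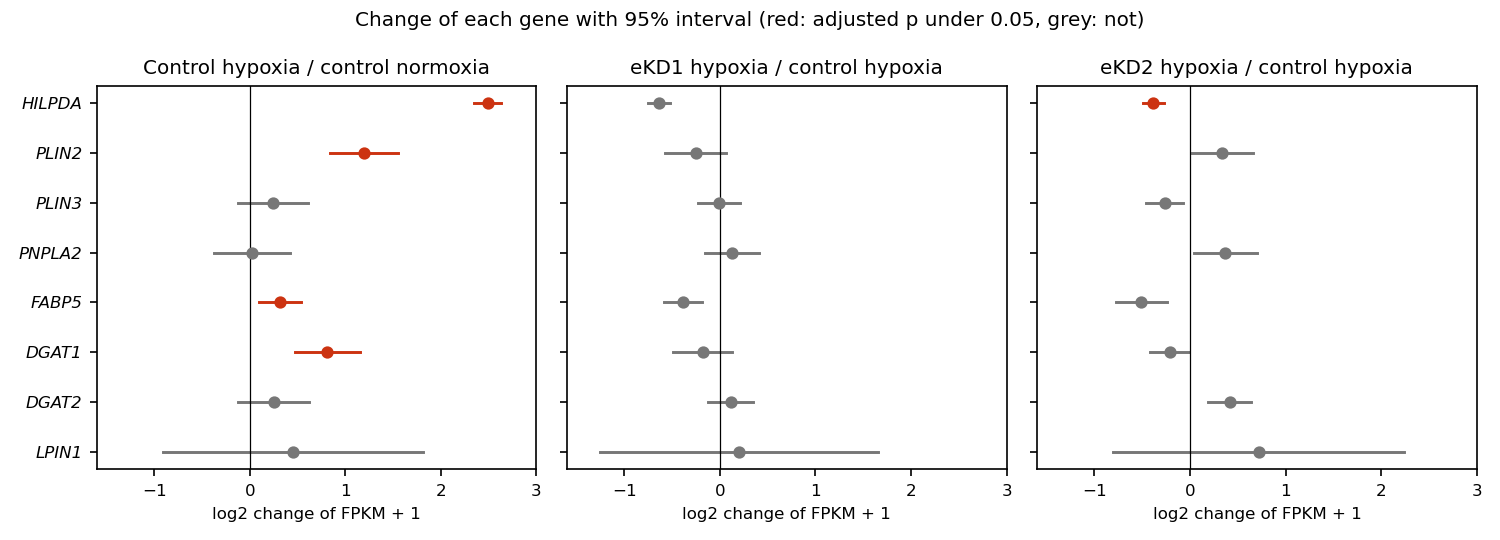
Change in log2(FPKM + 1) of each tested storage gene (points) with its 95% interval from limma (bars), for hypoxic against normoxic Ctrl cells and for each eKD group against hypoxic Ctrl cells. Red marks an adjusted p under 0.05, which holds for 4 genes in hypoxia, 0 in eKD1 and HILPDA in eKD2, and the interval of LPIN1 is the widest in each panel.

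The coat gene PLIN2 stood on opposite sides of hypoxic Ctrl cells with the guides. The eKD1 libraries held 10.7 and 10.3 FPKM and the eKD2 libraries 17.3 and 15.5 FPKM, beside 13.4 and 12.2 FPKM in hypoxic Ctrl cells. Both eKD1 libraries were below and both eKD2 libraries above every hypoxic Ctrl library. Of all genes tested 53.6% did not overlap with hypoxic Ctrl cells in eKD1 and 62.1% in eKD2. The share of all genes on opposite sides was not counted. The eKD1 difference was -0.26 (SE 0.112, adjusted p = 0.292) and the eKD2 difference 0.34 (SE 0.113, adjusted p = 0.139) in limma, and neither was called. Set directly against eKD1, eKD2 was higher by 0.59 (SE 0.113, 95% interval 0.27 to 0.92, adjusted p = 0.107, limma), which was not called either.

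FABP5 measured 41.6 and 43.0 FPKM with the eKD1 guide, and 41.4 and 36.3 FPKM with that of eKD2, all below the hypoxic Ctrl libraries. The difference from hypoxic Ctrl cells was -0.39 (SE 0.0687, adjusted p = 0.120) in eKD1 and -0.51 (SE 0.0937, adjusted p = 0.0559) in eKD2, with neither called in limma. These levels were near those of normoxic Ctrl cells, from which eKD1 differed by -0.07 (95% interval -0.29 to 0.15) and eKD2 by -0.19 (95% interval -0.48 to 0.10).

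DGAT2 and PNPLA2 had their highest levels in eKD2. DGAT2 measured 37.2 and 41.0 FPKM in the eKD1 libraries and 46.1 and 50.8 FPKM in those of eKD2, with differences from hypoxic Ctrl cells of 0.11 (adjusted p = 0.489) and 0.41 (SE 0.0786, adjusted p = 0.0581) in limma. PNPLA2 measured 36.4 and 35.6 FPKM in the eKD1 libraries and 40.3 and 45.4 FPKM in those of eKD2, with differences of 0.13 (adjusted p = 0.513) and 0.37 (SE 0.115, adjusted p = 0.124) in limma. The eKD2 libraries of both genes lay above all other libraries, and none of these differences was called.

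DGAT1 and PLIN3 went the other way in eKD2. DGAT1 measured 89.8 and 76.8 FPKM in the eKD1 libraries and 81.6 and 80.7 FPKM in those of eKD2, with differences from hypoxic Ctrl cells of -0.18 (adjusted p = 0.411) and -0.21 (adjusted p = 0.141) in limma. PLIN3 measured 41.1 and 38.3 FPKM in the eKD1 libraries and 32.8 and 33.3 FPKM in those of eKD2, with differences of -0.01 (adjusted p = 0.960) and -0.27 (adjusted p = 0.0903) in limma. Among the hypoxic groups the eKD2 libraries were the lowest for PLIN3 and the closest together for DGAT1, and none of these differences was called. LPIN1 measured 5.38 and 9.90 FPKM in the eKD1 libraries and 7.78 and 15.1 FPKM in those of eKD2. Its ranges overlapped with hypoxic Ctrl cells in both, with differences of 0.21 (adjusted p = 0.849) and 0.72 (adjusted p = 0.418) in limma.

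The guides were also compared with each other. In eKD2 against eKD1, limma called 0 of the 8 tested genes, while 4 had an unadjusted p under 0.05, namely PLIN2, HILPDA, DGAT2 and PLIN3. Over all genes tested 0.286% were called higher and 0.117% lower, and 23.6% had an unadjusted p under 0.05. HILPDA was higher in eKD2 by 0.25 (SE 0.0441, adjusted p = 0.0998, limma), and DGAT2 was higher by 0.30 (adjusted p = 0.187) and PLIN3 lower, at -0.26 (adjusted p = 0.173). PNPLA2 differed by 0.24 (95% interval -0.02 to 0.50) and DGAT1 by -0.03 (95% interval -0.31 to 0.25). In 6 of the 8 genes the libraries of the guides did not overlap, beside 55.2% of all genes tested.

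Hypoxic eKD cells were last set against normoxic Ctrl cells, a comparison in which guide and oxygen change together. In eKD1, 2 of the 8 genes were called, both higher, where 6.06% of all genes tested were called higher and 4.75% lower. HILPDA was higher by 1.85 (SE 0.0565, adjusted p = 0.00798, limma), or 3.66-fold between means, and PLIN2 by 0.94 (SE 0.135, adjusted p = 0.0396, limma), or 2.10-fold. Without any 1 library these were 1.82 to 1.88 (adjusted p 0.151 to 0.171) and 0.89 to 0.99 (adjusted p 0.169 to 0.179). DGAT1 was at 0.63 (adjusted p = 0.0692, limma) and was not called.

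In eKD2, 3 of the 8 genes were called, all higher, where 11.5% of all genes tested were called higher and 7.83% lower. HILPDA was higher by 2.11 (SE 0.0554, adjusted p = 0.00313, limma), or 4.37-fold, PLIN2 by 1.53 (SE 0.132, adjusted p = 0.0166, limma), or 3.27-fold, and DGAT1 by 0.60 (SE 0.109, adjusted p = 0.0409, limma), or 1.52-fold. Without any 1 library the adjusted p was between 0.0953 and 0.143 for HILPDA, 0.120 and 0.143 for PLIN2 and 0.120 and 0.187 for DGAT1. DGAT2 was at 0.67 (adjusted p = 0.0524, limma) and PLIN3 at -0.02 (95% interval -0.39 to 0.35). HILPDA and PLIN2 were thus above normoxic Ctrl cells in every hypoxic library of every group. With equal FPKM totals the median of all genes moved to -0.13 in eKD1 and -0.04 in eKD2 against normoxic Ctrl cells, from 0.01 and 0.07, and the higher share of calls from 56.1% to 30.1% and from 59.5% to 41.4%. It was 49.1% with median-of-ratios rescaling in eKD2. With equal FPKM totals HILPDA was higher by 1.69 in eKD1 and 1.97 in eKD2, and PLIN2 by 0.79 and 1.42. Relative to the moved medians, which largely undoes the scaling, HILPDA was higher by 1.81 and 2.02 and PLIN2 by 0.92 and 1.46.

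Other genes of lipid storage and use were read from lists that cover droplet coat and biogenesis, lipolysis, glycerolipid and sterol ester synthesis, fatty acid binding, uptake and activation, and fatty acid oxidation. In hypoxic against normoxic Ctrl cells 16.2% of all genes tested were called higher and 16% lower, with a median change of 0.01. The counts of every list in this comparison are to be read beside these shares. The uptake list had the largest share of its tested genes called. Of its 15 genes 9 were tested, 6 were called higher and 0 lower, with a median of 0.92. SLC27A3, a fatty acid transport protein with acyl-CoA synthetase activity, was at 2.77 and 2.16 FPKM in normoxia and at 20.3 and 15.6 FPKM in hypoxia, a rise of 2.45 (adjusted p = 0.00838, limma). VLDLR, the receptor for very low density lipoprotein, was at 3.11 and 2.36 FPKM in normoxia and at 11.4 and 9.24 FPKM in hypoxia, a rise of 1.60 (adjusted p = 0.0134, limma). A lack of overlap between the conditions was required for naming these genes, and it held for 70.4% of all genes tested.

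Of the 13 coat and biogenesis genes 6 were tested, with 2 called higher, 1 lower and a median of 0.39. TMEM159, the seipin partner also named promethin, rose by 1.37 (adjusted p = 0.0371) and PLIN1, the perilipin of adipocytes, by 1.054 (adjusted p = 0.0227) in limma. PLIN1 was at only 0.213 and 0.379 FPKM in normoxia and at 1.67 and 1.71 FPKM in hypoxia. AUP1, a droplet protein of the ubiquitin pathway, was the gene called lower, at -0.56 (adjusted p = 0.00998, limma). It was named after its value was seen, as were AGPAT3 and CPT1A below.

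Of the 9 synthesis genes all were tested, with 4 called higher, 1 lower and a median of 0.28. AGPAT2, which adds the second fatty acid to the glycerol backbone, rose by 0.82 (adjusted p = 0.0419) and LPIN3, a relative of LPIN1, by 0.79 (adjusted p = 0.0456) in limma, and AGPAT3 was called lower at -0.30 (adjusted p = 0.0431). With equal FPKM totals AGPAT2 and LPIN3 were no longer called (adjusted p = 0.0714 and 0.0750, limma). Over the alternatives that kept all libraries their adjusted p ranged from 0.00736 to 0.133 and from 0.0174 to 0.121. Of the 6 lipolysis genes 4 were tested, 0 were called higher, and ABHD6, a monoacylglycerol lipase, was called lower at -0.72 (adjusted p = 0.0273, limma). The median of that list was -0.06.

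All 14 oxidation genes were tested, with 5 called higher, 1 lower and a median of 0.24. ACADS, the short-chain acyl-CoA dehydrogenase, rose by 1.34 (adjusted p = 0.0101) and ETFB, a subunit of the electron transfer flavoprotein, by 0.83 (adjusted p = 0.0132) in limma. CPT1A, which starts the entry of long-chain fatty acids into mitochondria, was the gene called lower, at -0.55 (adjusted p = 0.0202, limma). Its levels were 90.2 and 92.8 FPKM in normoxia and 58.3 and 66.0 FPKM in hypoxia. Without any 1 library none of these genes was called, since 0 genes were called in any fit with 3 libraries.

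**Figure D4:**
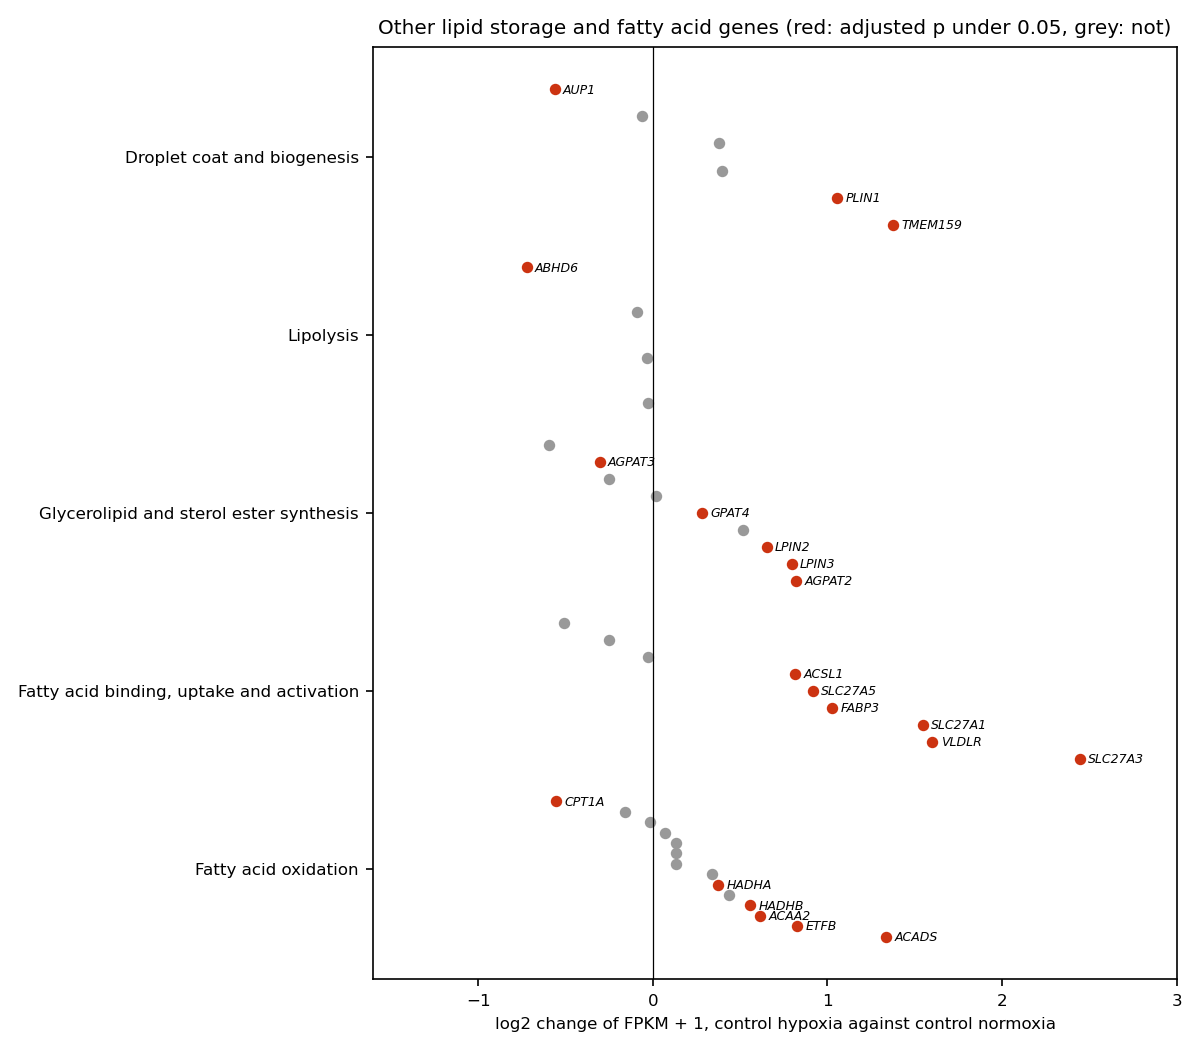
Change in log2(FPKM + 1) in hypoxic against normoxic Ctrl cells for the tested genes of the 5 other lists, 1 point a gene, with called genes in red and named. SLC27A3 at 2.45 lies farthest to the right and ABHD6 at -0.72 farthest to the left of the called genes.

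In eKD1 against hypoxic Ctrl cells limma called 0 genes of these 5 lists, with 5 genes at an unadjusted p under 0.05. Over all genes tested 21.7% had such a p in that comparison. In eKD2 limma called ABHD6 and VLDLR, both higher, where 5.8% of all genes tested were called higher and 3.81% lower. ABHD6 was at 43.4 and 40.1 FPKM in eKD2 beside 25.2 and 20.4 FPKM in hypoxic Ctrl cells, a difference of 0.85 (adjusted p = 0.0446, limma). VLDLR was at 22.9 and 23.4 FPKM beside 11.4 and 9.24 FPKM, a difference of 1.10 (adjusted p = 0.0343, limma). Both were above hypoxic Ctrl cells in each eKD2 library, but a lack of overlap was required for naming them. It held for 62.1% of all genes tested in that comparison. In eKD1, VLDLR was at 8.57 and 7.77 FPKM, below hypoxic Ctrl cells, and ABHD6 at 27.5 and 32.4 FPKM, above them. In eKD2 against eKD1 0 genes of these lists were called, with 8 at an unadjusted p under 0.05, beside 23.6% of all genes tested.

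Against normoxic Ctrl cells, AUP1 was lower in both eKD groups, at -0.56 (adjusted p = 0.0329) in eKD1 and -0.62 (adjusted p = 0.0177) in eKD2 by limma. Among the synthesis genes 0 were called in eKD1, while LPIN2 was higher at 0.82 (adjusted p = 0.0289) and AGPAT3 lower at -0.39 (adjusted p = 0.0411) in eKD2. Of the uptake genes 3 were called higher in eKD1, and 3 were called higher and 1 lower in eKD2. VLDLR was higher by 1.30 in eKD1 and 2.70 in eKD2, and SLC27A3 by 2.05 and 1.85. Of the oxidation genes 4 were called higher in eKD1 and 3 in eKD2, with ACADS at 1.11 and 1.25. No lipolysis gene was called in either. Over all genes tested 6.06% were called higher and 4.75% lower in eKD1, and 11.5% and 7.83% in eKD2.

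The genes whose levels over the 8 libraries were most like those of HILPDA, by Pearson's r on the log2(FPKM + 1) scale among tested genes with a mean of at least 5 FPKM, were CGREF1 (r = 0.999), PRAC1 (r = 0.999) and C4orf47 (r = 0.997). PRAC1 was at 75.3 and 81.6 FPKM in normoxic Ctrl, 432.2 and 420.6 in hypoxic Ctrl, 275.8 and 269.0 in eKD1 and 319.2 and 295.3 in eKD2. Those most like PLIN2 were INPP4A (r = 0.997), SLC31A1 (r = 0.995) and FHL1 (r = 0.992). SLC31A1 was at 13.4 and 12.7 FPKM in normoxic Ctrl, 26.4 and 26.1 in hypoxic Ctrl, 21.9 and 21.7 in eKD1 and 32.7 and 32.6 in eKD2. The 8 libraries fall into 4 groups, so these values describe a shared order of the groups and carry no test.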

How the data were processed

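The authors sequenced poly-A selected RNA as single-end reads of 75 bases, used STAR for alignment to GRCh37, and ran cufflinks followed by cuffnorm. The deposited FPKM fill 1 table, with a column for each library. How cuffnorm scaled between libraries is not given in the sources used here. The study's own test ran on read counts, which are not analysed here, so limma was used, and the absolute depth is unknown. From the worth of 1 read at low values, the depth was between 55.7% and 100% of that of replicate 1 of hypoxic Ctrl, any scaling by cuffnorm included. No counting interval or floor was computed.

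The 2 libraries of each group in a comparison entered a separate fit in limma 3.58.1 (R 4.3.3, lmFit and eBayes with a variance trend) on log2(FPKM + 1), which understates changes of low genes. Groups and replicate numbers came from the sample titles. A 2 against 2 permutation test cannot pass 0.05, so none was used.

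The genes and lists were chosen with earlier results of these data known. From each list at most 2 called genes per comparison were named, those with the largest change, at least 1 FPKM in the higher group and no overlap.

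Gene positions came from GENCODE 44 lifted to GRCh37, which is not the annotation of the authors, and promoters from RefSeq (GRCh38.p14). Cufflinks shares reads between overlapping genes, and 8 of the 10 genes overlap another. The library kit does not mark strand, so antisense reads cannot be told apart.

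Alternatives changed the pseudocount to 0.1, the filter to none or to a mean of at least 5 FPKM, the scaling to equal FPKM totals or to median-of-ratios factors, and the fit to 1 shared by all 8 libraries, to 1 with a replicate block or to 1 that has no variance trend, and left out each library in turn. Same-numbered replicates did not deviate together (r between -0.0574 and 0.126 over genes).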

Additional observations from a re-analysis of the deposited data

Results flagged for a closer look

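PLIN2 drew attention because its levels with the guides lay on opposite sides of hypoxic Ctrl cells, although neither difference was called (adjusted p = 0.292 and 0.139, limma). Both eKD1 libraries were below and both eKD2 libraries above all hypoxic Ctrl libraries. How many of all genes tested show the same pattern was not counted. PLIN2 was higher in eKD2 than in eKD1 by 0.59 on the log2(FPKM + 1) scale. The direct test of that difference did not pass (adjusted p = 0.107, limma, n = 2 and 2). It was called in the shared fit of all 8 libraries (adjusted p = 0.0310, limma). The adjusted p ranged from 0.0310 to 0.216 over the alternatives that kept all libraries. Without any 1 library the difference was between 0.52 and 0.67.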

How the results depend on the processing

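The 4, 0, 1, 0, 2 and 3 storage genes called in the comparisons of the report, in the order given there, were recounted under 8 alternatives and with each library left out. The count in hypoxia was 2 with no filter and 2 with the replicate block, both without FABP5 and DGAT1. In eKD1 against hypoxic Ctrl it was 1 (HILPDA) with no filter and with the shared fit. In eKD2 against hypoxic Ctrl it was 2 with equal FPKM totals, median-of-ratios rescaling, a mean of at least 5 FPKM or the shared fit, and 0 with the replicate block or no variance trend. In eKD2 against eKD1 it was 2 with the shared fit. In eKD1 against normoxic Ctrl it was 0 with no filter or the replicate block and 1 without the variance trend, and in eKD2 against normoxic Ctrl 1 with the replicate block. The fits with a library left out kept none of these calls. They rest on 1 library in 1 group, and the cause of the lost calls was not tested.

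The sample titles do not say whether equal replicate numbers pair the samples. Same-numbered replicates did not deviate together over all genes (r between -0.0574 and 0.126), though LPIN1 differed the same way in all 4 groups. Why calls were lost with the block was not tested. With the block HILPDA in eKD2 had an adjusted p of 0.0925, and limma called 2570 genes over the whole table in hypoxia, 0 in eKD1 and in eKD2 against hypoxic Ctrl, 0 in eKD2 against eKD1, and 0 and 51 against normoxic Ctrl.

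No called change turned its sign. Those that did were uncalled. With equal FPKM totals PNPLA2 was at -0.21 in hypoxia and -0.0157 in eKD1 against normoxic Ctrl, PLIN3 at 0.0603 in eKD1, and DGAT1 at 0.0022 in eKD2 against eKD1. With 1 library left out, PNPLA2 in hypoxia ranged from -0.114 to 0.157, LPIN1 from -0.112 to 1.03 in hypoxia and from -0.364 to 0.774 in eKD1, PLIN3 from -0.0578 to 0.0387 in eKD1 and from -0.173 to 0.128 in eKD2 against normoxic Ctrl, and DGAT1 from -0.144 to 0.0788 in eKD2 against eKD1. The cause was not tested. Under the alternatives that kept all libraries, 350 changes of storage genes kept their sign and side of the threshold, 20 lost and 10 gained a call and 4 turned sign.

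Over the whole table limma called 4946 genes in hypoxia, and 3024 with no filter. The counts were 10 in eKD1 (206 with no filter, 761 with the shared fit, 6 without the trend), 1477 in eKD2 (853, 2601 and 28) and 62 in eKD2 against eKD1 (260, 1391 and 5, and 105 with a mean of at least 5 FPKM). Against normoxic Ctrl they were 1662 in eKD1 (7, 3793 and 298) and 2973 in eKD2 (1261 with no filter, 4551 with the shared fit). With 2 libraries a group, a call can rest on a small spread between duplicates.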
